A study of Mus musculus with 2 samples.

Results

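The genes described here are 9 genes known from the salivary and lacrimal glands, namely Bpifa2, Smgc, Dcpp1, Dcpp3, Prol1, Prpmp5, Mucl2, Pip and Aqp5. The genes were chosen by their signal and their difference on these same 2 arrays, so their values are a description. Every array probe set that names exactly 1 of them was taken. These were 12 probe sets for 9 of the 18193 genes that have a probe set naming 1 gene only. Genes said below to be on the array are those 18193. A further 3 probe sets that name a member together with other genes (1 naming several Dcpp genes and 2 naming Prpmp5) were listed separately. The RNA was labelled as cerebral cortex of 1 Sox11 -/- mouse embryo and 1 wild-type littermate, both at E17.5. Both came from a cross of Sox11 +/- parents on a mixed C57BL/6 and 129 background, and no other allele or agent is given for either. Each genotype is therefore 1 Affymetrix array of 1 embryo. The differences below are between 2 libraries, with no replicate check and no test. Genotyping was done on tail clips, per the labels. How the null allele was built is not stated in the labels.

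Saliva and tears are made by acinar cells, which pack secretory proteins into granules and move water and salt across their apical membrane, and by ducts that modify the fluid. Serous acini and demilunes release small soluble proteins of innate defence and digestion, and mucous acini release heavily glycosylated mucins and mucin-like proteins. In the mouse the submandibular, sublingual and parotid glands begin as branching epithelial buds of the embryonic mouth, and several secretory genes are switched on before birth. None of these genes is a marker of the cerebral cortex.

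The labels could be checked by Sox11 itself, by cortical markers and by markers of other tissues. The 6 Sox11 probe sets kept 16.4% to 47.8% of the wild-type signal in the null library, and the labels do not say which of them lie in the deleted part. Of 14 cortical markers on the array, 12 were above the array median in both libraries (Neurod6 at 2723 in the null and 3019 in the wild-type library). Skeletal muscle markers were also bright, with 12 of 12 above the median in both libraries and Acta1 at 23519 in the null and 23182 in the wild-type library. Epidermal markers were above it in both libraries for 10 of 12 genes. The gland genes were thus read in RNA that held genes of tissues outside the cortex. The libraries also differed in sex-linked genes, with Xist at 155 in the null and 17505 in the wild-type library and Uty at 617 in the null and 21.8 in the wild-type library, so genotype and sex cannot be told apart. For the beta-actin control, the 3' probe set gave 1.16 times the signal of the 5' probe set in the null library and 1.78 times in the wild-type library. For the Gapdh control the same ratio was 0.816 in the null and 0.922 in the wild-type library.

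Most of the gland secretory genes were lower in the Sox11-null library, by very unequal amounts. Prol1, Mucl2, Prpmp5 and Dcpp3 were at least 4.54-fold lower, Dcpp1 and Pip were a little over 2-fold lower, Smgc and Bpifa2 were within 1.5-fold, and the water channel gene Aqp5 was 1.41-fold higher. In all, 6 of 9 members were at least 2-fold lower and 0 were 2-fold higher, and 4 were 2-fold lower with the floor under dim signals at the array median. The same sizes were reached by 0.985% (lower) and 0.573% (higher) of all 12390 measured genes. The members were proposed with this contrast in view, so these shares are printed as a background and nothing is read from them. The median log2 difference of the 9 members was -1.17, with a range from -3.05 to 0.50. A measured gene is one whose signal reached the array's median over all probe sets (177.4 in the null and 177.5 in the wild-type library) on at least 1 array. All 9 members met this, but Dcpp1, Mucl2 and Prpmp5 did so in the wild-type library alone. Before centring, a gene that passes in this way is bound to be lower in the null library, by a size that the filter does not set. In a tissue sample, fewer cells of a type and less RNA per cell cannot be told apart.

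**Figure D1:**
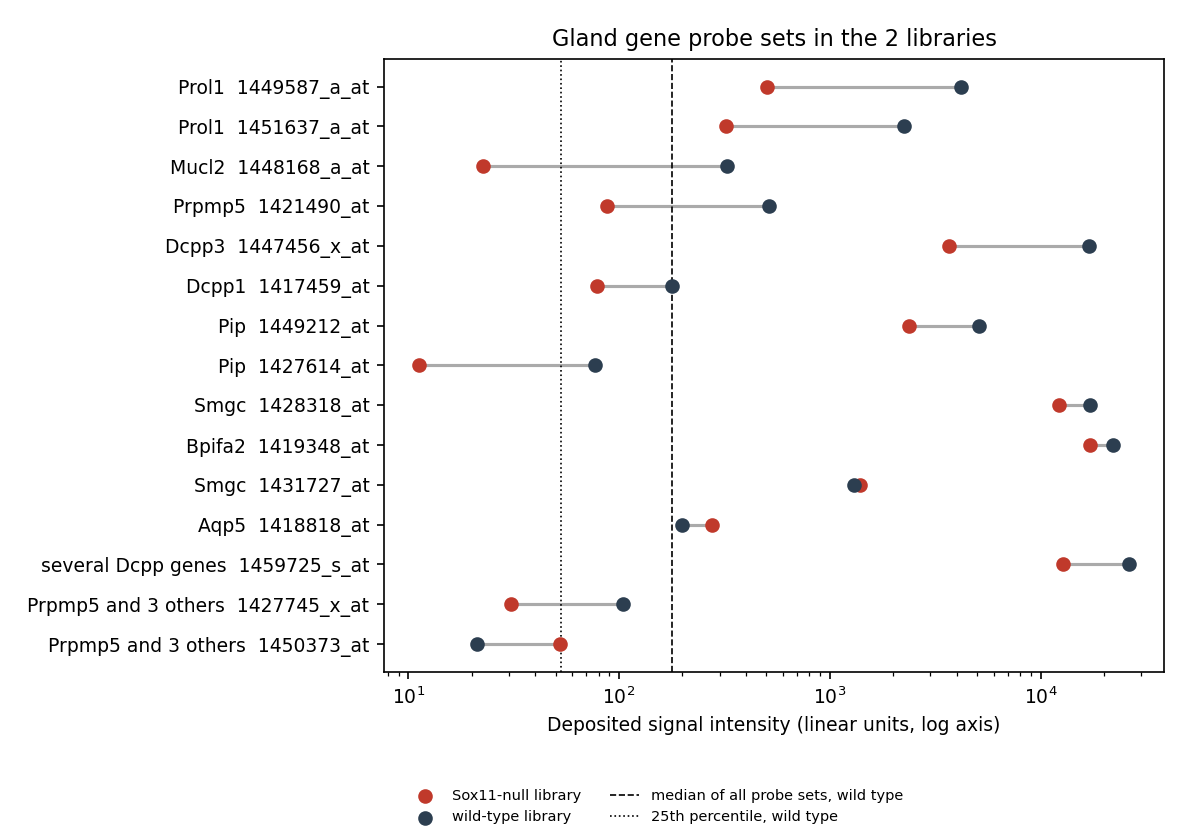
Deposited signal intensity (log axis) of each probe set of the 9 gland genes, and of the 3 probe sets that name a member with other genes, in the Sox11-null library (red) and the wild-type library (dark blue). Points are single arrays, dashed and dotted lines are the wild-type array's median and 25th percentile, and the red point lies left of the dark point for 10 of 12 single-gene probe sets.

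The early secretory products Bpifa2 and Smgc differed least among the 8 secretory members. Bpifa2 encodes the parotid secretory protein, a member of the BPI fold family of lipid-binding host defence proteins. Its only probe set, 1419348_at, had a signal of 17131 in the null library and 21963 in the wild-type library, so that 78% remained in the null library (log2 difference -0.34). Smgc encodes submandibular gland protein C, which acinar precursor cells of the newborn submandibular and sublingual glands secrete, and RefSeq lists Muc19 as a synonym of the same gene. Its brighter probe set, 1428318_at, was at 12281 in the null and 17176 in the wild-type library (-0.46). Its other probe set, 1431727_at, was at 1386 in the null and 1298 in the wild-type library (0.11). The probe sets of Smgc thus pointed in opposite directions. Over the 4130 brightest measured genes the central 95% of differences ran from -0.46 to 0.45, so Bpifa2 lay inside this range and Smgc at its edge.

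The upstream sequence of Bpifa2 is shown because it carries a TATAA match close to the start site, as do most of these genes. RefSeq places these 120 bases before the start at chr2:154008156-154008275 on the + strand of GRCm38.p6, and the capitals mark TATAA. The sequences shown for other genes follow the same scheme, each read 5′ to 3′ along its gene.
Bpifa2: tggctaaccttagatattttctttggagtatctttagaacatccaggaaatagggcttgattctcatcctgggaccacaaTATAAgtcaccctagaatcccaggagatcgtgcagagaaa

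The Dcpp genes encode demilune cell and parotid proteins, small secreted proteins named after the serous demilunes of the sublingual gland. Dcpp3 was represented by 1447456_x_at, with a signal of 3674 in the null library and 16907 in the wild-type library. The null library held 21.7% of it, or was 4.54-fold lower (log2 difference -2.18). Dcpp1 was represented by 1417459_at, at 78.4 in the null and 179 in the wild-type library (-1.17). That wild-type value lies barely above the array median, and the null value lies below it. The probe set that names Dcpp1, Dcpp2 and Dcpp3 together, 1459725_s_at, was at 12849 in the null and 26152 in the wild-type library, 2.01-fold lower (-1.01). All 3 Dcpp probe sets were therefore lower in the null library, but their sizes ran from 2.01-fold to 4.54-fold.

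Which Dcpp gene gave which signal cannot be settled from these values. The platform annotation gives the same source sequence for the Dcpp3 probe set and for the probe set naming several Dcpp genes, and the RefSeq gene table lists the name of that source sequence as a synonym of Dcpp1. The _x_at type marks probes that can bind other transcripts. The genes sit close together on chromosome 17, and their upstream sequences are nearly alike. Over the 250 bases before the start, identity was 97.1% between Dcpp1 and Dcpp2 (245 aligned bases), 98% between Dcpp1 and Dcpp3 and 98% between Dcpp2 and Dcpp3. The last 120 of these bases are shown to let the copies be compared. They lie on the + strand of GRCm38.p6 at chr17:23880756-23880875 for Dcpp1, chr17:23898602-23898721 for Dcpp2 and chr17:23917338-23917457 for Dcpp3. The copies are offset by a few bases because RefSeq starts them at slightly different points, so that TATAA (capitals) begins 26, 31 and 29 bases before the start.
Dcpp1: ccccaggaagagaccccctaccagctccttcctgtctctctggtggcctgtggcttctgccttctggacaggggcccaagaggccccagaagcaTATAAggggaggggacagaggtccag
Dcpp2: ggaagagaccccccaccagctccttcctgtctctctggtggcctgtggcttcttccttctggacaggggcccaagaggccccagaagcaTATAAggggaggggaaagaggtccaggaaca
Dcpp3: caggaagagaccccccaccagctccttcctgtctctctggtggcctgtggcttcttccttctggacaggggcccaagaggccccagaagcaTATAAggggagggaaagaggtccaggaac

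Prol1, Mucl2 and Prpmp5 were the members with the lowest differences as reported, and the sizes of the last 2 depend on the floor. Prol1, also named Muc10, encodes a proline-rich mucin of the lacrimal and submandibular glands. It was measured by 2 probe sets, at 501 in the null and 4196 in the wild-type library by 1449587_a_at, and at 321 in the null and 2255 in the wild-type library by 1451637_a_at. Both Prol1 probe sets were above the array median in both libraries. The null library held 11.9% and 14.3% of the wild-type signal, and the log2 differences were -3.05 (8.26-fold lower) and -2.79 (6.92-fold lower). The SD between them was 0.18, against a pooled SD of 0.39 between probe sets of the same gene over 5155 genes with several measured probe sets. Counted from the lowest difference, Prol1 ranked 3 of 12390 measured genes.

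Mucl2 encodes a mucin-like salivary protein, and Prpmp5 a proline-rich protein of the parotid. Mucl2 (1448168_a_at) had 22.6 in the null and 327 in the wild-type library. The null value was below the array's 25th percentile (52.5), where signals are noisy and were raised to that percentile, so Mucl2 was at least 6.13-fold lower. Prpmp5 (1421490_at) had 87.3 in the null and 513 in the wild-type library, or 5.79-fold lower (-2.53). Both were below the median in the null library and above it in the wild-type library. With the floor raised to the array median their log2 differences were -0.86 for Mucl2 and -1.51 for Prpmp5. The probe sets that name Prpmp5 with Prb1, Gm4736 and Gm8882 were dim and did not point one way. The first, 1427745_x_at, was at 30.8 in the null and 104 in the wild-type library. The second, 1450373_at, was at 52.4 in the null and 21.3 in the wild-type library, both under the 25th percentile.

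Pip encodes prolactin-induced protein, a small glycoprotein of saliva, tears and sweat. Its measured probe set, 1449212_at, was at 2374 in the null and 5112 in the wild-type library, so that 46.4% remained in the null library (-1.09, 2.12-fold lower). Its other probe set, 1427614_at, was below the median in both libraries, at 11.3 in the null and 77.0 in the wild-type library. That probe set was lower in the null library as well, with the null value under the 25th percentile.

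Aqp5 was the single member higher in the null library. Aqp5 encodes the water channel of the apical membrane of salivary and lacrimal acinar cells, through which water enters the fluid, and it is also found in lung and other epithelia. Its probe set, 1418818_at, was at 275 in the null and 198 in the wild-type library (0.50, 1.41-fold higher). Both values lay above the array median, the wild-type value only a little. Over the 4130 dimmest measured genes the central 95% of differences ran from -0.94 to 0.82, so Aqp5 lay inside that range.

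**Figure D2:**
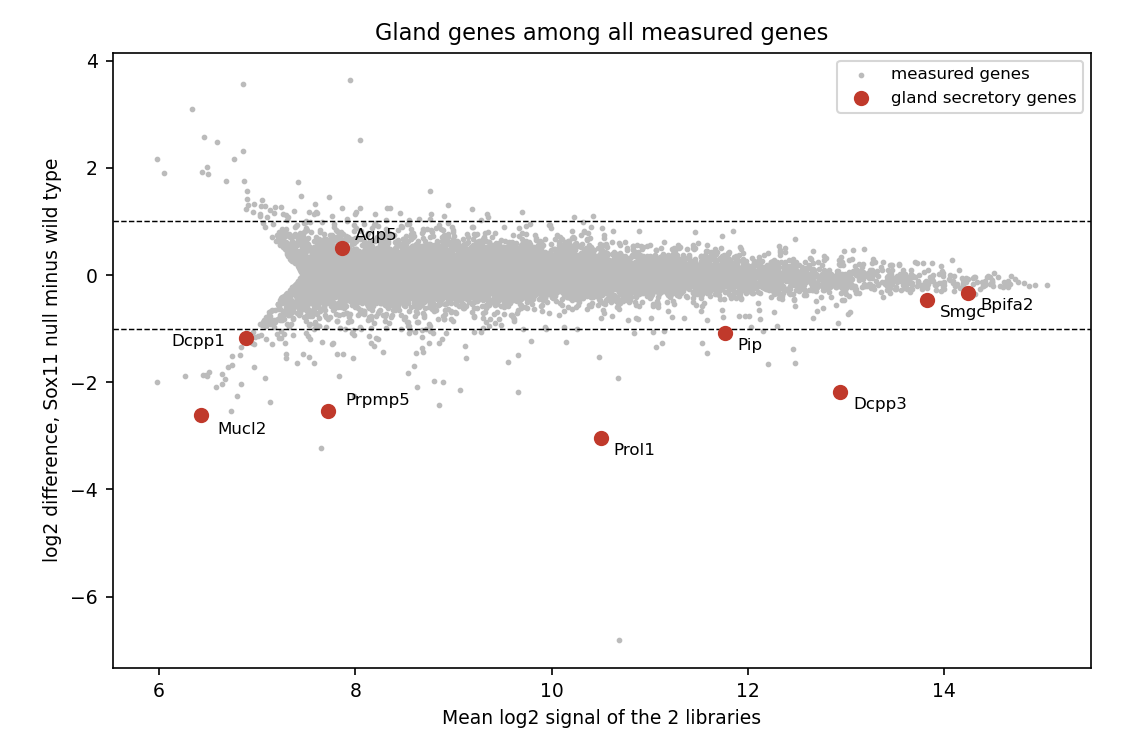
Log2 difference (Sox11 null minus wild type) against mean log2 signal for the 12390 measured genes (grey) and the 9 gland genes (red, named). Dashed lines mark 2-fold. Prol1 and Dcpp3 lie far below genes of a like signal, Mucl2 and Prpmp5 lie at the dim end, and Bpifa2, Smgc and Aqp5 lie within 1.5-fold.

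Prol1 and Dcpp3 were above the median on both arrays, and their differences stayed between -3.07 and -2.96 for Prol1 and between -2.22 and -2.08 for Dcpp3 under the alternative settings that kept them. Without probe sets of the _s_at and _x_at types Dcpp3 had no value. Dcpp1 had a log2 difference of 0.01 with the floor at the array median. Bpifa2 ranged from -0.37 to -0.16 and Smgc from -0.48 to -0.21 over the settings.

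**Figure D3:**
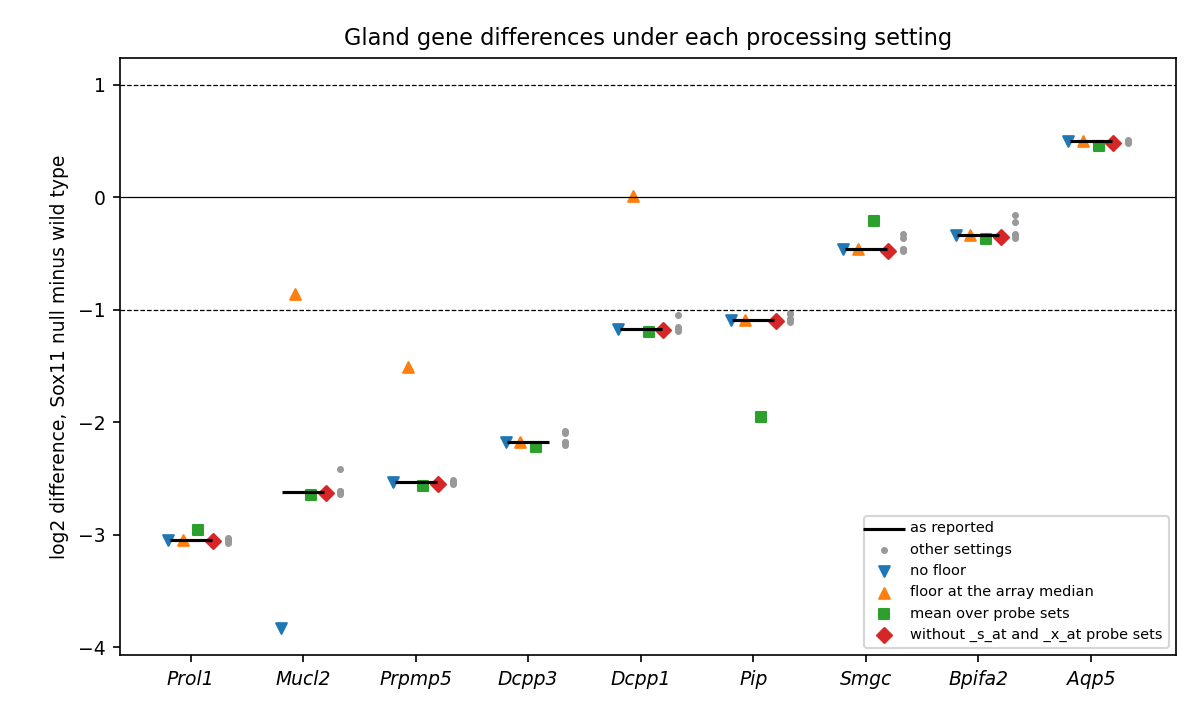
Log2 difference (Sox11 null minus wild type) of each gland gene as reported (black bars) and under 9 other processing settings (symbols). Prol1, Dcpp3, Bpifa2, Smgc and Aqp5 hardly move, while Mucl2, Prpmp5 and Dcpp1 depend on the floor put under dim signals and Pip on averaging with its dim probe set.

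The start regions of the members were compared in a RefSeq promoter table, in which all 9 were found. The motif TATAA, the core of the TATA box that sets the start site of many strongly expressed tissue-specific genes, was searched on both strands in the 50 bases before the start. It was present in 6 of 9 members (Bpifa2, Smgc, Dcpp1, Dcpp3, Pip and Prpmp5), against 6.36% of all 32851 promoters. The near-identical Dcpp1 and Dcpp3 count as 2 of these 6. Its first base lay 26 to 41 bases before the start. The motif ACAAAG, a core that Sox proteins can bind, was searched on both strands in the 250 bases before the start. It was found in Prol1 and Prpmp5 (2 of 9), against 16.5% of all promoters, and no match of it in a member overlapped a TATAA match. A match is a description of letters only.

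Base composition set Aqp5 apart from the other members. The 8 other members had 36% to 58.8% G and C and 0 to 5 CG steps in the 250 bases, against 78.4% and 38 for Aqp5 and medians of 52.4% and 6 over all promoters. The upstream bases of Prol1, the member with the largest difference, and of Aqp5 are shown for this contrast, and neither holds TATAA in the searched window. Both lie on the + strand of GRCm38.p6, at chr5:88317192-88317311 for Prol1 and chr15:99590908-99591027 for Aqp5.
Prol1: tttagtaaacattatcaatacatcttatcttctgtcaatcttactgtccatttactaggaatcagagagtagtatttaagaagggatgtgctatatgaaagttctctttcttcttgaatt
Aqp5: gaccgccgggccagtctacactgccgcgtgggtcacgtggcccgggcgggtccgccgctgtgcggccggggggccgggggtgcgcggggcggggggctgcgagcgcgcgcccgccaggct

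The nearest array genes on either side of the members, in RefSeq order, were mostly too dim to compare, with 11 of 17 below the median in both libraries. Prol1 lies between Smr2, a further submandibular gland secretory gene, and Amtn, an enamel gene, on chromosome 5. Smr2 was at 2438 in the null and 2327 in the wild-type library (0.09), and Amtn at 202 in the null and 205 in the wild-type library. Prol1's large difference was thus not seen in either neighbour. Next to Smgc on chromosome 15, Lrrk2 had a difference of -0.15 and Cntn1 of -0.02. Beside Prpmp5 on chromosome 6, the proline-rich protein gene Prp2 was at 25.3 in the null and 175 in the wild-type library, just under the median, and was not measured by the rule (-1.71). The neighbours of Bpifa2 (Bpifb3 and Bpifa3), of Pip (Kel and Sval2) and of Aqp5 (Aqp2 and Aqp6) were below the median in both libraries, with Kel at -0.82, as were Prss21 and Prss30 beside the Dcpp genes and Mucl1 beside Mucl2.

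In a list of other products of these glands, not all of them secreted, 13 of 18 measured genes were below the wild type. Of the 18, 11 were within 1.5-fold. Centring by the median puts about as many of all measured genes below the wild type as above it. The lists described from here on were drawn up with earlier results of these data known, and they are described by counts alone. Of 28 genes of this list of other salivary and lacrimal products on the array 18 were measured, of which 4 were at least 2-fold lower and 1 was 2-fold higher. Over all measured genes 0.985% were that much lower and 0.573% that much higher. The list median was -0.35. Car6, the secreted carbonic anhydrase of saliva, was at 426 in the null and 1327 in the wild-type library (-1.62). Slpi, a secreted protease inhibitor, was at 189 in the null and 516 in the wild-type library (-1.43). Dmbt1, the salivary agglutinin, was at 51.1 in the null and 203 in the wild-type library. Cst10, a cystatin, was at 39.4 in the null and 194 in the wild-type library. With their null values raised to the 25th percentile they were 3.82-fold and 3.65-fold lower. Their wild-type values lay a little above the array median (177.5), so these sizes depend on the floor. Dmbt1 and Cst10 passed the filter by their wild-type signal alone, and Lcn2 by its null signal alone. Lcn2, an iron-siderophore-binding lipocalin, was higher, at 340 in the null and 171 in the wild-type library (1.01). The brightest members were Bpifb9b (4902 in the null and 8662 in the wild-type library, -0.80), Wfdc18 (-0.34) and Tcn2 (-0.29). Lpo, the salivary peroxidase, had a difference of 0.18 and Amy1, the salivary amylase, of 0.34, both within 1.5-fold. Thus the differences were not shared by every product of the glands.

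Kallikreins, which granular ducts of the adult mouse submandibular gland make, were mostly dim. Only 4 of 12 genes of that list were measured. Klk1, tissue kallikrein, was at 215 in the null and 704 in the wild-type library (-1.69), and its other probe sets gave -1.63, -1.68 and -0.43. Klk1 belongs to a family of near-identical genes, and whether its probe sets bind Klk1b transcripts was not tested. All 8 Klk1b genes that had a probe set naming 1 gene only were below the median in both libraries. The growth factor genes Nrtn (-0.33), Tgfa (0.49) and Egf (-0.05) were within 1.5-fold.

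Genes of the BPI fold family of Bpifa2 lay on both sides, and the measured ones were lower. All 5 measured genes of 9 on the array were at least 1.5-fold lower, a size that 3.24% of all measured genes reached (3.07% were 1.5-fold higher). Only 3 of the 5 were above the median on both arrays, and 2 passed the filter by their wild-type signal alone. Bpifa1, a secreted protein of the nasal and upper airway lining, was at 5602 in the null and 8711 in the wild-type library (-0.62). Bpifb5 was at 695 in the null and 1381 in the wild-type library (-0.97). Bpifc (-2.02) and Bpifa5 (at least 3.67-fold lower) were measured by their wild-type signal alone. Bpifb3 was higher, at 154 in the null and 79.6 in the wild-type library (0.97), and Bpifa3 was at 84.8 in the null and 16.9 in the wild-type library (0.70), but both were below the median in both libraries. Bpifb9b (-0.80) was counted both here and among the other salivary and lacrimal products. The nasal and olfactory gland list, which shares the measured genes Bpifa1 and Bpifb5 with this family, had 4 measured genes of 14. Of these, the lipocalin Lcn11 was lower (286 in the null and 589 in the wild-type library, -1.02) and Reg3g, an antibacterial lectin, had a difference of 0.41.

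Genes of the casein and enamel gene cluster that holds Prol1 were not 2-fold lower like it. Of 16 on the array 6 were measured, 0 were 2-fold lower or higher and 3 were 1.5-fold lower, against 3.24% of all measured genes. Of these 3, Sult1d1 (-0.82) and Csn3 (-0.92) passed the filter by their wild-type signal alone. Ambn, an enamel matrix gene, was at 1095 in the null and 1937 in the wild-type library (-0.80), and Odam had a difference of -0.01. Smr2 (0.09) was counted both here and among the other salivary and lacrimal products.

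Transcription factors known from gland development and genes of the secretory pathway lay within 1.5-fold. Of 17 measured gland transcription factors 17 were within 1.5-fold, with a median of -0.08. Over all measured genes, 3.24% were 1.5-fold lower and 3.07% 1.5-fold higher, so most genes of any kind lay within 1.5-fold. Xbp1, a regulator of secretory capacity, was at 5544 in the null and 5102 in the wild-type library (0.14). The next brightest, Etv5 and Trp63, had differences of 0.03 and -0.08. Bhlha15, the acinar factor also called Mist1, was at 190 in the null and 244 in the wild-type library (-0.35), and Sox10 had a difference of -0.42. Of 28 genes of the secretory pathway, which put proteins into the endoplasmic reticulum and fold them, 28 were within 1.5-fold. P4hb, Canx and Hspa5, the brightest of them, had differences of 0.02, -0.01 and -0.17. The secretory pathway genes are active in every cell type, so their levels are not those of gland cells alone. The RNA held several tissues, so the levels of the transcription factors cannot be assigned to gland cells either.

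Fluid secretion, branching and epithelial genes were also mostly within 1.5-fold, as were most of all measured genes (3.24% were 1.5-fold lower and 3.07% higher). Of 16 measured channels, transporters and receptors of fluid secretion 15 were within it, with Slc12a2, the chloride-loading cotransporter of acinar cells, at 3714 in the null and 3262 in the wild-type library (0.21). Atp1b1, a sodium pump subunit, and the water channel gene Aqp1 had differences of 0.08 and 0.04. Ano1, the apical chloride channel, had a difference of 0.33, and the calcium sensor Stim1 was lower (272 in the null and 505 in the wild-type library, -0.87). Of 18 measured branching signals 15 were within 1.5-fold, 1 was lower (Shh, -0.80) and 2 were higher (Hbegf, 0.94, and Eda, 0.77). The brightest, the hedgehog receptor Ptch1, Kitl and its receptor Kit, had differences of -0.13, 0.08 and 0.02. All 20 genes of simple and basal epithelium were measured and within 1.5-fold. Krt5, Krt15 and Spint2 were the brightest, at 0.11, 0.19 and -0.34, and Epcam had a difference of -0.09. All 6 measured myoepithelial and smooth muscle genes were within it as well, with Acta2 at 5904 in the null and 5833 in the wild-type library, Lgals7 at -0.45 and Mylk at -0.01. In RNA of several tissues, the levels of the genes in these lists cannot be assigned to gland cells.

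**Figure D4:**
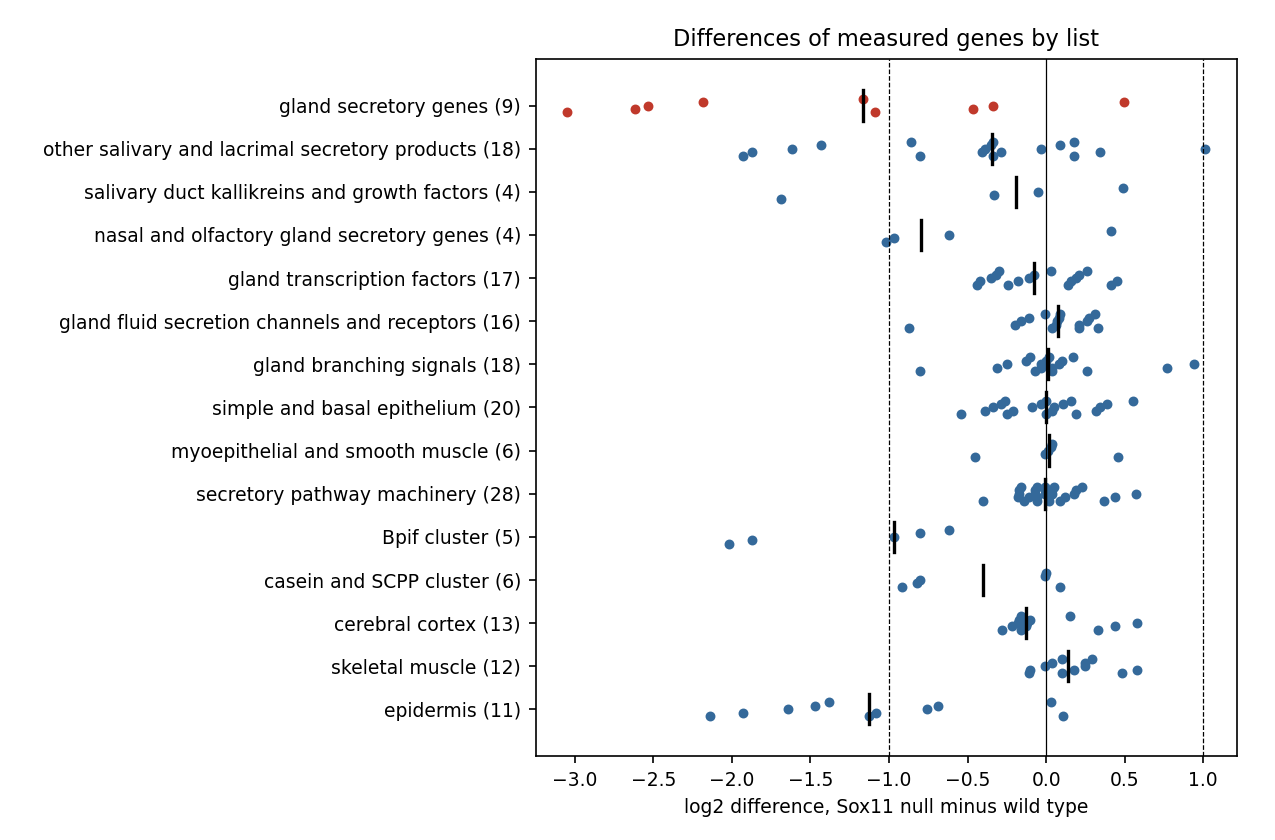
Log2 difference (Sox11 null minus wild type) of each measured gene, by list, with the number of measured genes in parentheses and black bars at the list medians. Vertical dashed lines mark 2-fold. The gland secretory genes (red) spread from -3.05 to 0.50, the measured Bpif and most epidermis genes lie left of 0, and transcription factors, secretory pathway, epithelium, cortex and muscle lie around 0.

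Markers of other tissues differed by unequal amounts. Of 11 measured epidermal genes 7 were at least 2-fold lower, against 0.985% of all measured genes. Among these 7, Ivl passed the filter by its wild-type signal alone (105 in the null and 295 in the wild-type library). The list median was -1.13 and the summed signal 26210 in the null and 50211 in the wild-type library. Krt10, a keratin of the layers above the basal one, was at 3229 in the null and 10189 in the wild-type library. The basal keratin Krt5 was at 4737 in the null and 4461 in the wild-type library. Lce1a1 also differed little, at 2341 in the null and 2330 in the wild-type library (0.03). All 12 skeletal muscle genes were within 1.5-fold (median 0.14, summed signal 153573 in the null and 148922 in the wild-type library). All 13 measured cortical genes were within it too (median -0.13, summed signal 23829 in the null and 26154 in the wild-type library). Most of all measured genes were also within it, with 3.24% lower and 3.07% higher by that much. The other epidermal genes beyond 2-fold were Dsc1 (-2.14), Flg (-1.93), Ivl (-1.47), Krt1 (-1.38), Dsg1a (-1.13) and Krtdap (-1.08), and Lor was at -0.69. The part that different amounts of non-cortical tissue had in the gland gene differences was not tested.

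Markers of other exocrine tissues were mostly dim. Of 8 exocrine pancreas genes 2 were measured, and Cpa1, a pancreatic carboxypeptidase, was at 10.2 in the null and 3.38 in the wild-type library. Of 6 genes of the lactating mammary gland 1 was measured, and Lalba and Wap were below the median in both libraries. Of 8 lung epithelial genes 4 were measured, and they did not point one way. Sftpd was higher, at 409 in the null and 221 in the wild-type library (0.91). Sftpc was at 129 in the null and 182 in the wild-type library, and Sftpb at 132 in the null and 219 in the wild-type library. Sftpc and Sftpb passed the filter by their wild-type signal alone. Scgb3a2, a secretoglobin of airway epithelium, was at 1687 in the null and 2108 in the wild-type library.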

How the data were processed

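Gene expression was measured on 2 Affymetrix arrays, 1 per genotype. The authors deposited 1 linear signal intensity per probe set and array, made with Affymetrix Expression Console per the submitters' processing notes. These notes name no summary algorithm, version or genome build. Both arrays had a mean of 500 after trimming 2% at each end, as scaling to 1 target gives. Precision is limited by the number of arrays.

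Of 45101 probe sets 64 controls were left out, 34945 named 1 gene in the platform annotation, 932 several and 9160 were unnamed here. Symbols of 34741 were updated by gene number through RefSeq (GRCm38.p6) and 204 kept theirs. Each gene took its probe set of highest mean log2 signal. The null array was centred (shift of -0.0199 on the log2 scale over measured genes), and signals under the 25th percentile were raised to it. Differences are Sox11 null minus wild type, counted at 1.5-fold and 2-fold without a test. The calculation (Python 3.11.15, pandas 2.3.3, numpy 2.4.6, Biopython 1.88) was tested on simulated data.

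Members and lists were chosen with earlier results of these data known. Named were all members, their neighbours, Sox11, and in each gland list up to 5 measured genes beyond 2-fold and the 3 brightest, with no such rule for the tissue markers. Other genes were chosen after their values were seen. The alternatives were no centring, quantile normalization, loess, other floors and filters, averaged probe sets and no _s_at or _x_at types.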

Additional observations from a re-analysis of the deposited data

How the results depend on the processing

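With 1 array per genotype no replicate could be left out, and values were called moved when they shifted by over the 0.39 pooled SD between probe sets of 1 gene, or counts by over 1.5 times. No paired analysis was possible because each genotype has 1 array and the labels carry no replicate numbers. With the floor at the array median, Dcpp1 was at 0.01 in place of -1.17, Mucl2 at -0.86 and Prpmp5 at -1.51, 4 members were 2-fold lower, 69 genes were 2-fold lower and 27 higher, and the median of the casein and enamel cluster list was -0.02. With no filter on dim genes 212 genes were 2-fold lower and 160 higher, and the medians were -0.19 for the nasal and olfactory list and 0.01 for the casein and enamel cluster list. With the filter at the 75th percentile, which tests fewer genes, 5 members passed, 3 of them 2-fold lower, 47 genes were 2-fold lower and 15 higher, and the kallikrein and growth factor list was at -1.01. With probe sets averaged, the median over the members was -1.95, Pip was at -1.95 and 139 genes were 2-fold higher. No floor put Mucl2 at -3.83. Apart from these and Dcpp3, which had no value without the _s_at and _x_at types, no setting moved a member by more than that SD. Where no construction explains a shift, the cause was not tested. Signals near the floor have no usable order, which limits Mucl2, Prpmp5, Dcpp1 and the second probe set of Pip.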
